A study of Homo sapiens with 12 samples.

Results

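The genes described here encode plasma membrane carriers of neutral amino acids and cystine. They were chosen, with earlier results of these data known, by a fixed list of 9 transcript identifiers for 7 genes. A gene was kept where its identifier was present in the count tables. The result was 6 genes with 1 transcript each, among 19849 transcripts listed in all: SLC7A11, SLC7A5, SLC38A2, SLC1A5, SLC1A4 and SLC43A1. None of the 3 identifiers for SLC3A2, the heavy chain that carries SLC7A11 and SLC7A5 to the cell surface, was among the listed rows, so SLC3A2 is not analysed here. The pairing of identifier and gene name came with the list. The count tables hold identifiers without names, and 0 of the 19849 identifiers could be looked up in the gene tables used here, so other transporters, other genes of the pathway and markers of the epithelial cell type are not described.

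The cells were RKO, an established human colon cancer line labelled as epithelial and wild type. All groups were first plated in full medium, then washed into arginine-free DMEM with dialysed serum to which arginine was added back. Fed cells received 400 uM arginine and starved cells 12.5 uM arginine, both for 24 hours, with no other agent or allele distinguishing the groups. RNA sequencing and ribosome profiling, which sequences the mRNA fragments (footprints) that ribosomes protect from nuclease, were run concurrently, with n = 3 libraries in each of the 4 combinations of assay and arginine level. The labels do not state that the 3 libraries of a group are separate cultures, and the p-values then reflect only how much these libraries differ, possibly for technical reasons. A single line in culture has no other cell types to compare, and a difference in the amount of RNA per cell cannot be told apart from a difference in the number of cells in a lysate.

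Amino acid carriers of this kind work as a network. Sodium-driven carriers such as SLC38A2 concentrate small neutral amino acids, exchangers of the SLC1 family swap them for others such as glutamine, and SLC7A5 lets intracellular glutamine leave in return for leucine and other large neutral amino acids. SLC7A11, the light chain of system xc-, exports glutamate in exchange for cystine, the oxidised precursor of the cysteine used for glutathione. When amino acids run short, uncharged tRNA activates the kinase GCN2 and translation of the transcription factor ATF4 increases; SLC7A11, SLC7A5, SLC38A2, SLC1A4 and SLC1A5 are described as ATF4 targets. None of the 6 carriers is a main route of arginine uptake, which belongs to the cationic carriers of the SLC7 family.

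RNA library totals lay between 4670881 and 7967215 counts and footprint totals between 2063952 and 4364383. Levels below are in CPM, counts scaled to the library total. Changes were tested on counts by quasi-likelihood in edgeR in each assay over all transcripts that had enough counts, and a change is said to have passed when its Benjamini-Hochberg adjusted p was under 0.05. Log2 fold changes are starved over fed, with TMM scaling, and so compare each transcript with the rest of its assay. All 6 genes had enough counts for every test.

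RNA of all 6 carriers rose in starved cells. The 6 changes ranged from 1.56-fold for SLC38A2 to 21.7-fold for SLC7A11, with a median log2 fold change of 1.51 against −0.01 over all 11572 transcripts tested. Of those transcripts 33.8% passed as higher in starved cells. In each of the 6 genes the 3 starved RNA libraries were all above the 3 fed ones in CPM, a separation seen in that direction for 28.6% of tested transcripts. Ribosome footprints passed as higher on 3 of the 6, SLC7A11, SLC7A5 and SLC1A5, and on 18.9% of 13457 tested transcripts. The same 3 genes had all starved footprint libraries above all fed ones, as did 26.6% of tested transcripts. The ratio of footprints to RNA fell for 5 of the 6, all but SLC38A2, where 11.7% of 11027 tested transcripts passed as lower.

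**Figure D1:**
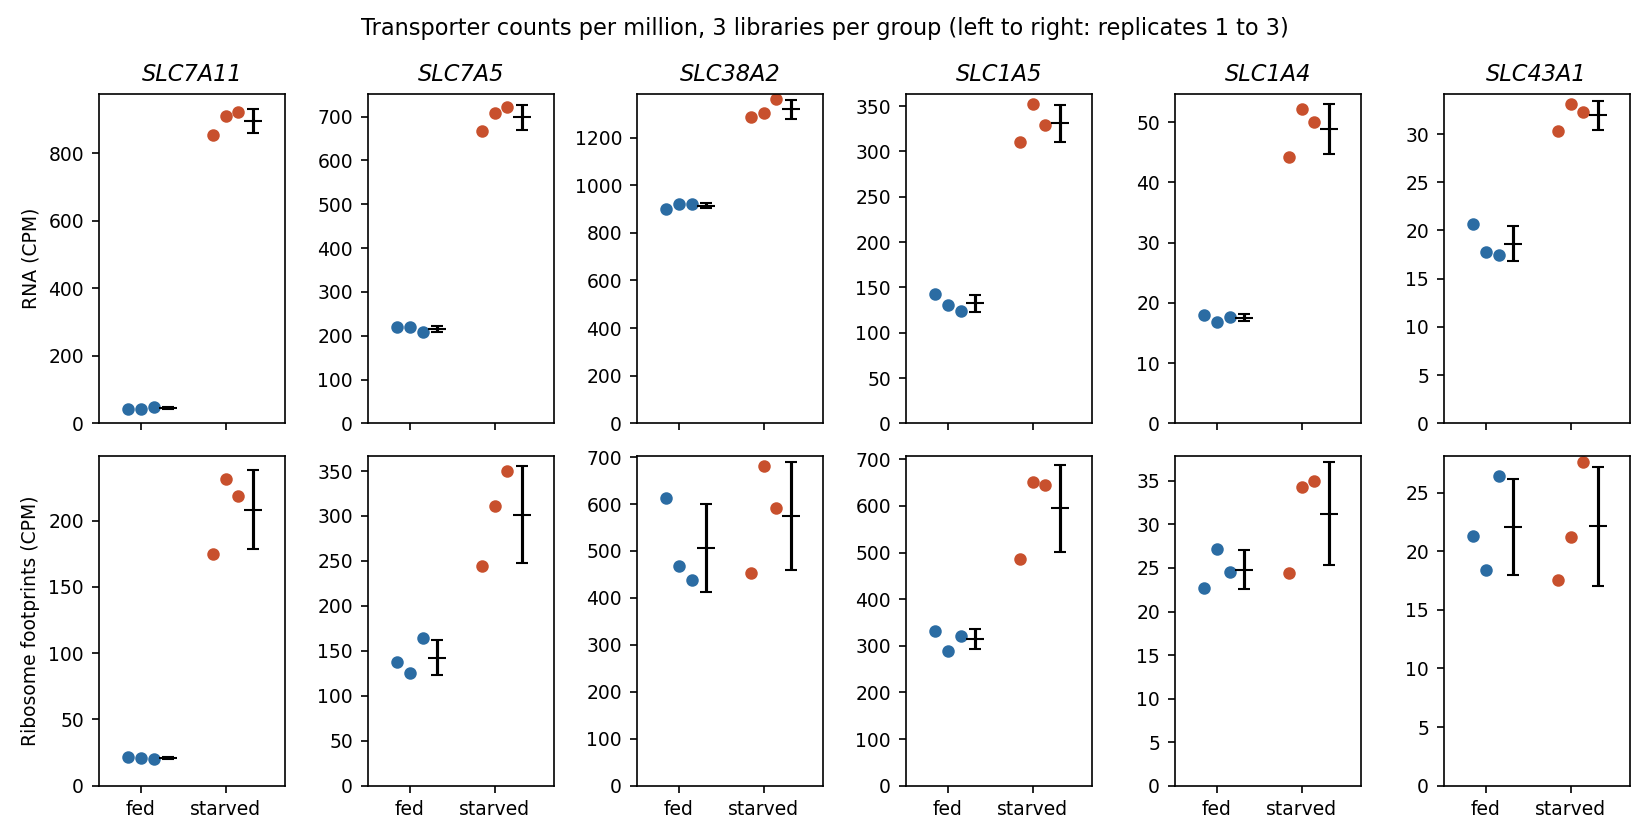
CPM (vertical axes, from 0) of the 6 carriers in RNA libraries (top) and footprint libraries (bottom), with fed cells in blue, starved cells in orange, 1 point per library and the mean with its SD (n = 3) beside the points. Starved and fed points do not overlap in any RNA panel, and in the footprint panels they separate for SLC7A11, SLC7A5 and SLC1A5 and overlap for SLC38A2, SLC1A4 and SLC43A1.

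The cystine carrier SLC7A11 (ENST00000280612) changed most. Its RNA stood at 42.9, 42.6 and 47.9 CPM in fed replicates 1 to 3 and at 854, 909.8 and 922 CPM in starved replicates 1 to 3. The mean went from 44.5 ± 2.95 to 895 ± 36.6 CPM (SD, n = 3), so that every starved library held far more SLC7A11 RNA than any fed library. The log2 fold change was 4.44 (edgeR adjusted p = 8.955e-50, SE 0.09), and only 16 of the 11572 tested transcripts had a larger increase. Footprints on SLC7A11 were 22.0, 20.8 and 19.8 CPM in the fed libraries, from 96, 43 and 42 counts. The starved libraries gave 175, 232 and 218 CPM, from 408, 655 and 799 counts. Footprints thus rose in all starved libraries too, and replicate 1 was the lowest of the 3. The log2 fold change of footprints was 3.26 (edgeR adjusted p = 8.353e-08, SE 0.16), 9.60-fold, and 18 of 13457 transcripts exceeded it.

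The footprint increase on SLC7A11 was smaller than its RNA increase. Taking libraries of the same treatment and number together, as a description only, the ratio of footprint CPM to RNA CPM was 0.512, 0.489 and 0.414 in fed and 0.205, 0.255 and 0.237 in starved cells. The ratios of fed and starved cells did not overlap. Translational efficiency, tested as the interaction of assay and arginine level in 1 model over all 12 libraries, fell by 1.10 on the log2 scale (edgeR adjusted p = 8.382e-05, SE 0.16). Starved cells therefore carried 9.97 times the mean footprint CPM and 20.1 times the mean RNA CPM of fed cells.

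The large neutral amino acid exchanger SLC7A5 (ENST00000261622), also called LAT1, followed at a smaller scale. SLC7A5 RNA was 220.2, 221 and 209 CPM in fed and 666, 708 and 721 CPM in starved libraries. This was a log2 fold change of 1.80 (edgeR adjusted p = 2.181e-32, SE 0.07), or 3.49-fold, and the groups were far apart compared with their SDs of 6.91 and 28.6 CPM (n = 3). Footprints on SLC7A5 were 138, 125 and 164 CPM in fed and 244, 311 and 350.2 CPM in starved libraries. The starved libraries again lay above the fed ones, with a wider spread between replicates than in RNA. Footprints rose by 1.04 on the log2 scale (edgeR adjusted p = 0.0002477, SE 0.15), 2.05-fold, and efficiency fell by 0.68 (edgeR adjusted p = 0.003397, SE 0.15). The ratio of footprint to RNA CPM averaged 0.660 ± 0.114 in fed and 0.430 ± 0.0604 in starved cells (SD, n = 3).

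SLC43A1 (ENST00000278426), or LAT3, moves some of the same substrates as SLC7A5 but as a facilitated carrier that needs no heavy chain. Its RNA was 20.7, 17.8 and 17.4 CPM in fed and 30.3, 33.1 and 32.3 CPM in starved libraries. The RNA increase of 0.88 on the log2 scale (edgeR adjusted p = 7.968e-10, SE 0.12) was 1.83-fold, with no overlap between groups. Footprints on SLC43A1 were 21.3, 18.4 and 26.4 CPM in fed and 17.5, 21.2 and 27.6 CPM in starved libraries, so the groups covered the same range. The footprint difference was −0.01 (95% confidence interval −0.45 to 0.42, edgeR adjusted p = 0.9675) from 38 to 101 counts per library, so changes within that interval are compatible with these libraries. Efficiency of SLC43A1 fell by 0.80 (edgeR adjusted p = 0.01063, SE 0.21).

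RNA of both SLC1 exchangers rose. Footprints passed the test for SLC1A5 but not for SLC1A4 (footprint intervals 0.58 to 1.16 and −0.07 to 0.70). These separate tests do not compare the genes with each other. Within libraries, the footprint ratio of SLC1A4 to SLC1A5 shifted by −0.59 on the log2 scale without overlap between groups. Its exact permutation test could not have passed 0.05 with 3 against 3 libraries. SLC1A5 (ENST00000542575), or ASCT2, is a major glutamine carrier of many cancer lines, and its relative SLC1A4 (ENST00000234256), or ASCT1, prefers alanine, serine and cysteine. SLC1A5 RNA was 143, 131 and 124 CPM in fed and 311, 352 and 329 CPM in starved libraries, a log2 fold change of 1.43 (edgeR adjusted p = 2.337e-27, SE 0.07). SLC1A4 RNA was 18.1, 16.9 and 17.6 CPM in fed and 44.2, 52.2 and 50.01 CPM in starved libraries, a log2 fold change of 1.58 (edgeR adjusted p = 7.261e-21, SE 0.11). Both genes thus gained RNA in every starved library, by 2.70-fold and 2.99-fold.

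Footprints on SLC1A5 rose with its RNA. They were 332, 289.7 and 322 CPM in fed and 487, 651 and 645 CPM in starved libraries, a log2 fold change of 0.87 (edgeR adjusted p = 0.0002818, SE 0.13). Efficiency of SLC1A5 fell by 0.48 (edgeR adjusted p = 0.01871, SE 0.14), the smallest of the 5 efficiency changes that passed. It did not pass with library totals in place of TMM factors (−0.38, edgeR adjusted p = 0.0741) or with the abundance trend removed from each library (−0.22, edgeR adjusted p = 0.289). The call for SLC1A5 efficiency thus depended on the scaling.

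Footprints on SLC1A4 did not pass the test. They were 22.7, 27.1 and 24.5 CPM in fed and 24.4, 34.3 and 35.0 CPM in starved libraries. Starved replicates 2 and 3 lay above all fed libraries, while starved replicate 1 fell inside the fed range. The log2 fold change was 0.32 (95% confidence interval −0.07 to 0.70, edgeR adjusted p = 0.1703), and without starved replicate 1 it was 0.43 (edgeR adjusted p = 0.0498). Efficiency of SLC1A4 fell by 1.17 (edgeR adjusted p = 0.0001783, SE 0.19), the largest decrease of the 6. Its ratio of footprint to RNA CPM went from 1.25, 1.60 and 1.40 in fed to 0.551, 0.657 and 0.700 in starved cells, without overlap.

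SLC38A2 (ENST00000256689), or SNAT2, is the sodium-coupled system A carrier of small neutral amino acids. Its RNA had the smallest increase of the 6, from 900.3, 923 and 921 CPM in fed to 1288, 1304 and 1362 CPM in starved libraries. The log2 fold change was 0.64 (edgeR adjusted p = 2.27e-11, SE 0.07), and no starved library overlapped a fed library. Footprints on SLC38A2 were 613, 468 and 439 CPM in fed and 453, 680.0 and 591 CPM in starved libraries. These ranges overlapped, and the log2 fold change of 0.14 (95% confidence interval −0.22 to 0.49, edgeR adjusted p = 0.5295) did not pass. Its efficiency difference of −0.42 (95% confidence interval −0.78 to −0.07, edgeR adjusted p = 0.07824) missed the adjusted threshold, although its direction was that of the other 5 genes. The call turned when a single library was left out, to −0.54 (edgeR adjusted p = 0.0354) without fed footprint replicate 3 and −0.56 (edgeR adjusted p = 0.0159) without starved footprint replicate 2. Leaving out any other single library gave no pass, with the weakest difference, −0.28 (edgeR adjusted p = 0.26), without fed footprint replicate 1.

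**Figure D2:**
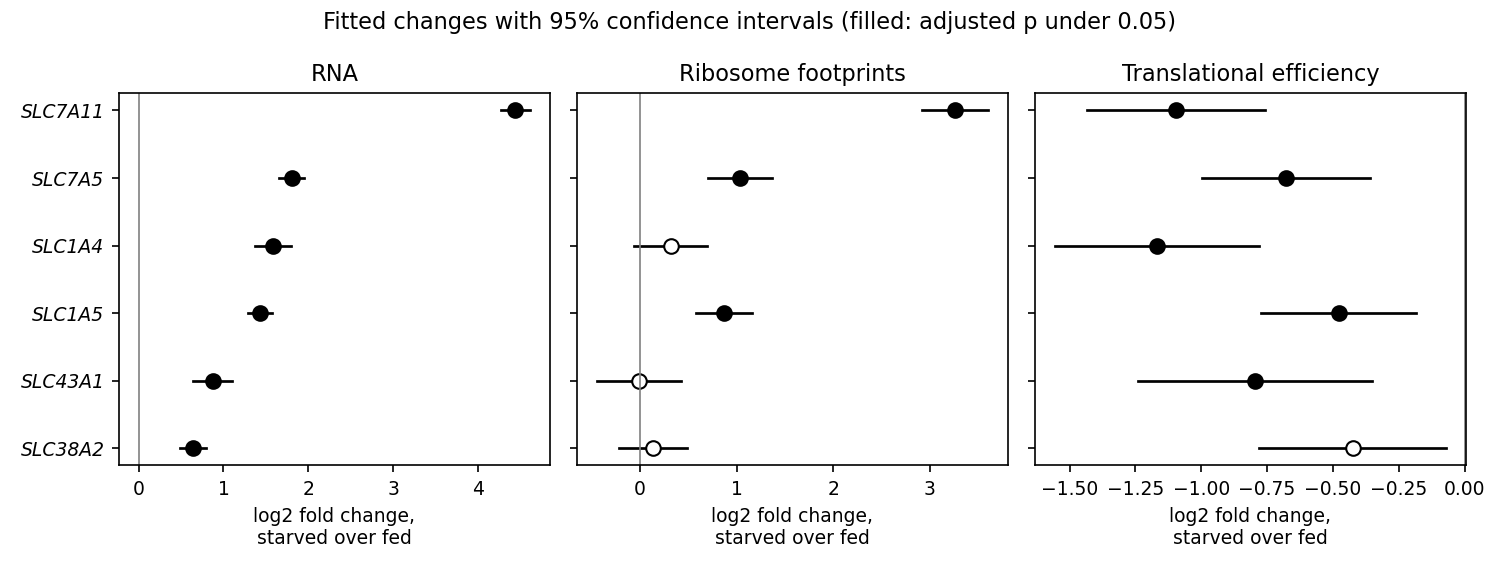
Log2 fold change, starved over fed, of the 6 carriers in RNA, in footprints and in translational efficiency (horizontal axes, with different ranges), with 95% confidence intervals as lines and filled points where the adjusted p was under 0.05. All 6 RNA points are filled and right of 0, 3 footprint points are filled, and all 6 efficiency points lie left of 0 with 5 filled.

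Ordered by RNA change, the carriers ran SLC7A11, SLC7A5, SLC1A4, SLC1A5, SLC43A1 and SLC38A2. The 95% confidence interval of SLC7A11, 4.27 to 4.61, lay far above that of SLC7A5, 1.66 to 1.95. The intervals of SLC7A5, SLC1A4 (1.37 to 1.79) and SLC1A5 (1.29 to 1.57) overlapped between neighbours, and so did those of SLC43A1 (0.65 to 1.10) and SLC38A2 (0.49 to 0.79). Between SLC1A5 and SLC43A1 there was a gap. In footprints the order was SLC7A11, SLC7A5, SLC1A5, SLC1A4, SLC38A2 and SLC43A1, and the intervals of the last 3 all included 0.

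Across the 6 libraries of an assay, each carrier was also matched to the carrier with the most similar log2 CPM profile. In RNA, SLC7A11 and SLC7A5 were each other's closest match (Pearson's r = 0.998 over 6 libraries that share the same 2 conditions). The lowest r between any pair in RNA was 0.967, between SLC38A2 and SLC43A1. In footprints SLC7A5 and SLC1A5 were closest to each other (r = 0.982 over 6 libraries), while the best match of SLC43A1 reached only r = 0.360. These values describe the libraries and carry no test, since the shared libraries and the arginine contrast enter every profile.

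Ratios of 2 carriers inside a library do not depend on how libraries are scaled, and 3 such ratios were followed in each assay, 6 tests in all. The footprint ratio of SLC1A4 to SLC1A5 lay between −3.86 and −3.40 on the log2 scale in fed and between −4.31 and −4.20 in starved libraries, a shift of −0.59. The RNA ratio of the same pair shifted by 0.15 with overlapping groups (two-sided exact permutation p = 0.2, 0.24 after adjustment over the 6). SLC43A1 lost ground to SLC7A5 in both assays, by −0.91 on the log2 scale in RNA and −1.08 in footprints, with no overlap between groups. SLC1A5 relative to SLC7A5 shifted by −0.37 in RNA without overlap and by −0.17 in footprints with overlap (two-sided exact permutation p = 0.3, also after adjustment). The 4 shifts without overlap each gave p = 0.1 (two-sided exact permutation test, 0.15 after adjustment), and 0.1 is the smallest p that 3 against 3 libraries allow, so this test could not have passed a threshold of 0.05.

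**Figure D3:**
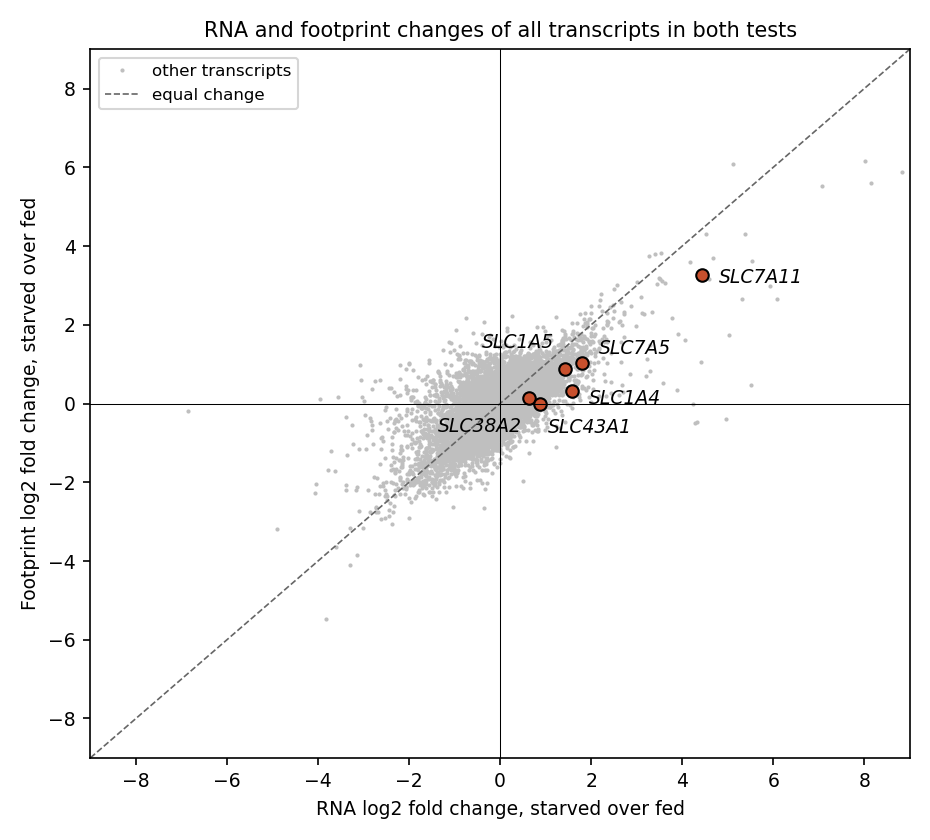
RNA log2 fold change (horizontal axis) against footprint log2 fold change (vertical axis), starved over fed, for the 11027 transcripts tested in both assays, in grey, with the 6 carriers in orange and a dashed line of equal change. All 6 carriers lie right of 0 and below the dashed line, with SLC7A11 far from the other 5.

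The combination of more RNA and lower efficiency passed both tests in 5 of the 6 carriers, SLC7A11, SLC7A5, SLC1A5, SLC1A4 and SLC43A1. The same held for 6.72% of the 11027 transcripts tested in both assays. SLC38A2 had the same directions, but its efficiency change did not pass (−0.42, edgeR adjusted p = 0.07824). The combination became more frequent among transcripts with larger RNA increases. Efficiency passed as lower in 19.5% of the 3809 transcripts whose RNA passed as higher, in 30.0% of the 730 whose RNA rose more than 2-fold, and in 43.9% of the 114 whose RNA rose more than 4-fold. RNA counts enter both the RNA change and the efficiency change, so the 2 values are not independent. With the abundance trend removed, a setting that centres changes at each expression level, efficiency still passed as lower for SLC7A11 (−0.91, edgeR adjusted p = 0.000347), SLC1A4 (−1.20, edgeR adjusted p = 0.000147), SLC43A1 (−0.86, edgeR adjusted p = 0.00656) and SLC7A5, where the change went from −0.68 to −0.45 (edgeR adjusted p = 0.0428). In the same setting SLC1A5 did not pass (−0.22, edgeR adjusted p = 0.289). The median efficiency change of the 6 carriers was −0.74, beside −0.02 over all tested transcripts. With library totals in place of TMM factors, lower efficiency passed for 803 and higher for 1567 of all transcripts, against 1292 and 1227 with TMM factors.

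**Figure D4:**
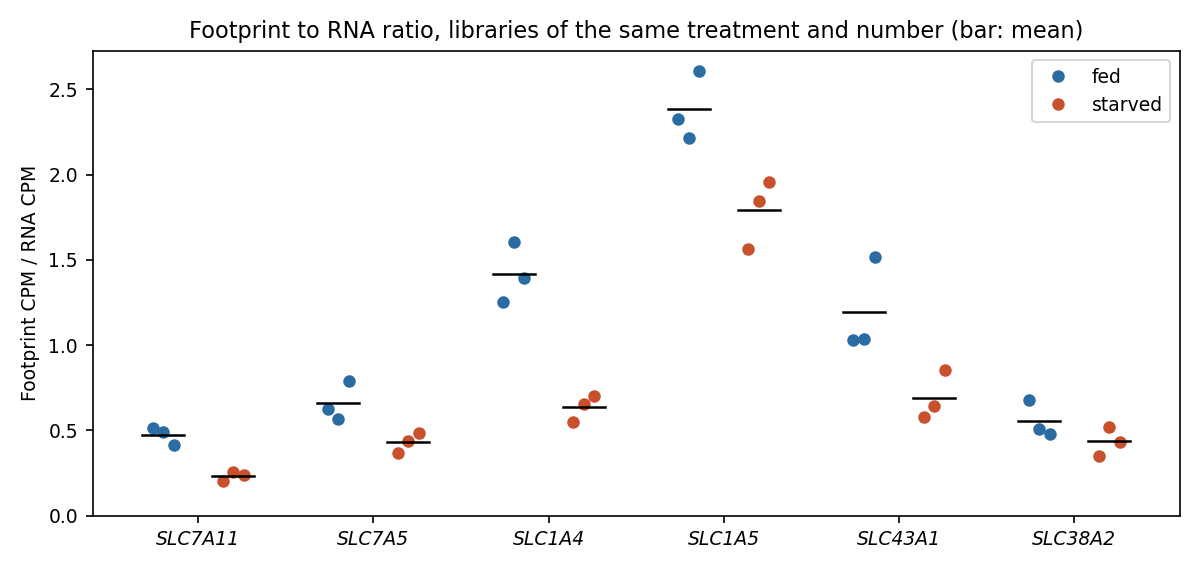
Ratio of footprint CPM to RNA CPM (vertical axis, from 0) for each carrier, with 1 point per pair of libraries of the same treatment and replicate number, fed in blue and starved in orange, and bars at the means. Starved points lie below all fed points for every carrier except SLC38A2, whose starved ratios of 0.352, 0.522 and 0.434 overlap its fed ratios of 0.681, 0.507 and 0.477. The share of all transcripts with such a separation of ratios was not computed, and joining libraries by number is a description only.

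The libraries of starved replicate 1 were the lowest of the 3 starved libraries for all 6 carriers, in RNA as in footprints. They were the lowest for 37.4% of all tested transcripts in RNA and for 40.5% in footprints. Without the RNA library of this number RNA again passed as higher for all 6 carriers, and without the footprint library footprints passed as higher for 4, SLC1A4 being the addition.

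Promoter sequences were available for 5 of the 6 carriers as 9 windows, each running from 250 bases before to 50 bases after an annotated RefSeq transcript start (GRCh38.p14). They were searched on both strands for TGATGNAAN, a form of the amino acid response element bound by ATF4 with a C/EBP partner, and for TTGCATCA, whose reverse complement is contained in the first pattern when N is C. Matches were found in 2 windows, of SLC1A4 and SLC1A5, and both patterns matched at the same place in each. Over all 35116 windows of this length 3.61% held TGATGNAAN and 0.866% held TTGCATCA. Both stretches are shown because they carry these letters next to starts of genes whose RNA rose. Each is 100 bases long, with the match in capitals, and is given in the direction of transcription.
SLC1A4 (chr2:64989304-64989403, plus strand): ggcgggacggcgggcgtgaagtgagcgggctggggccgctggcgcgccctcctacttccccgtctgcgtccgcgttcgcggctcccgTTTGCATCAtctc
SLC1A5 (chr19:46784857-46784956, minus strand): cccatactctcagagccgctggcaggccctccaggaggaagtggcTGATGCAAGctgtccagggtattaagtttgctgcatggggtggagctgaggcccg

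The SLC1A4 match begins 8 bases before the annotated start, on the strand opposite to the gene. The SLC1A5 match begins 97 bases before a start that lies inside the gene, downstream of the 2 other annotated SLC1A5 starts. Which start the counted transcript of either gene uses is not given in the sources used here. A match describes the letters of the window and does not show that a factor binds there, and windows without a match say nothing about elements elsewhere, such as in introns.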

How the data were processed

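RNA and ribosome footprints were measured in 12 RKO libraries. The deposited values are raw counts, whole numbers for 19686 Ensembl transcripts in RNA and 19849 in footprints. Per the labels' protocols, TruSeq was the RNA library kit and RiboCop removed ribosomal RNA. Per the submitters' processing notes, the tools included STAR, cutadapt, DESeq2 and UMI-tools, and the build was GRCh38.p13. Not given in the sources used here are their roles and versions, the counting tool, the counted region and how multi-mapping reads were treated. Reads shared between isoforms or similar genes could therefore have been assigned to either.

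The test was the two-sided quasi-likelihood F test of edgeR 4.0.16 (R 4.3.3) with TMM factors, filterByExpr and Benjamini-Hochberg adjustment over all transcripts tested. Each assay was fitted with treatment as the only term. Efficiency was the interaction of assay and treatment over the 12 libraries, scaled separately by assay. The tests were checked on simulated data. Log2 ratios of 2 carriers used a prior count of 0.5. Alternatives were DESeq2 size factors, library totals, no filter, the Wald test of DESeq2 1.42.0 with 1 size factor per library over both assays, loess removal of the abundance trend, the replicate number as a block, a prior count of 5, and leaving out each library. The members, gene lists and tests were chosen with earlier results of these data known. All members are named, whether or not they passed. The planned gene lists and cell type markers could not be matched to identifiers, and the 3 listed identifiers of SLC3A2 had no row. None of these lists and markers, nor ratios to SLC3A2, was therefore computed. No pair of replicates was identical. Over the 12 replicate pairs the counts differed by more than sampling noise (chi-square of 2.07 to 7.73 per degree of freedom).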

Additional observations from a re-analysis of the deposited data

How the results depend on the processing

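Under all 12 alternatives of the RNA comparison all 6 carriers passed as higher, with log2 fold changes between 4.25 and 4.50 for SLC7A11 and between 0.53 and 0.67 for SLC38A2. The median RNA change of all transcripts moved from −0.01 to −0.12 with library totals in place of TMM factors. In footprints SLC7A11, SLC7A5 and SLC1A5 passed under all 12 alternatives. The footprint difference of SLC43A1, near 0, turned sign to 0.04 with library totals, 0.03 with the abundance trend removed, and ranged from −0.21 to 0.09 when single libraries were left out (0.08 without fed replicate 3, 0.09 without starved replicate 1, 0.02 without starved replicate 2). That of SLC38A2 ranged from −0.02 (without starved replicate 2) to 0.27 (without fed replicate 1). Lower efficiency passed for 4 to 6 carriers over 19 alternatives, and the number of all transcripts that passed moved too. It was 803 with library totals and 1018 with the abundance trend removed, of 11027 each, and 1705 of 15054 without the filter on low counts. SLC38A2 also passed without that filter (−0.52, edgeR adjusted p = 0.0428).

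Whether the replicate numbers pair the libraries could not be settled from 3 libraries per group. Deviations of same-numbered libraries from their group means correlated between −0.213 and 0.129 across transcripts. Some libraries correlated best with their own number and others did not. With the replicate block, 7956 transcripts passed for RNA, 4655 for footprints and 2306 for efficiency, against 7861, 5360 and 2519 without it, and no call of a carrier changed. With RNA and footprint libraries of the same treatment and number sharing a term, 2494 passed for efficiency and SLC38A2 also passed (−0.43, edgeR adjusted p = 0.0439). The lowest footprint counts of a carrier in a library were 38 for SLC43A1, 42 for SLC7A11 and 52 for SLC1A4, which limits the precision of single values there.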
